A study of Mus musculus with 6 samples.

Results

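The genes described here encode receptors and adhesion molecules that place plasma cells in bone marrow, hold them there or let them leave. They are 9 of the 13642 genes with values: the chemokine receptor genes Cxcr4, Cxcr3, Ccr2, Ccr9 and Ccr10, the sphingosine 1-phosphate (S1P) receptor genes S1pr1 and S1pr4, the selectin ligand gene Selplg and the hyaluronan receptor gene Cd44. They were taken by gene symbol, for what their proteins are known to do, and each matched 1 row. RNA was sequenced from long-lived plasma cells, antibody-secreting cells that persist in marrow, of 3 old and 3 young C57BL/6J samples. Old samples were from male mice of 17 to 19 months, supplied by the colony of the National Institute on Aging. Young samples were from female mice of 2 to 3 months, supplied by the UCLA animal division or the Jackson Laboratory, so age, sex and supplier cannot be told apart. No allele or treatment was named for either group. In both groups the cells were sorted from marrow as CD138 high and negative for B220, IgD, the alpha-beta and gamma-delta T cell receptors, CD11b and Gr-1. The design text speaks of independent groups of mice, without the number of animals behind a library, and p-values therefore reflect only how these samples varied, which may be technical.

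Plasma cells reach the marrow along Cxcl12, the chemokine made by its stromal cells, which Cxcr4 senses. Ccr9 and Ccr10 respond to chemokines of mucosal tissue, Cxcr3 to interferon-induced chemokines and Ccr2 to inflammatory ones. S1P is abundant in blood, and S1pr1 lets lymphocytes follow it out of a tissue. PSGL-1, the product of Selplg, tethers cells to selectins on vessel walls once it carries sugars and sulfate, and CD44 binds hyaluronan in the matrix.

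Values are FPKM, fragments normalized to gene length and library total. Low values were whole multiples of a single fragment, which put about 27.0 M, 28.1 M and 27.0 M fragments behind old replicates 1 to 3 and about 24.5 M, 25.1 M and 22.5 M behind young replicates 1 to 3. Differences were tested with limma on log2(FPKM + 1) over the 10687 genes with a mean of at least 1 FPKM, and a call required a p under 0.05 after Benjamini-Hochberg adjustment over these genes. Plasma cell markers were abundant in every library, their sum over 12 genes being 9317 to 23775 FPKM in old and 20624 to 23813 in young libraries, with the lowest sum in old replicate 3. Summed markers of monocytes and macrophages were 216 to 788 FPKM in old and 80.8 to 357 in young libraries, of neutrophils 263 to 1230 and 363 to 563, of B cells 264 to 734 and 405 to 522, and of erythroid cells 51.4 to 914 and 6.03 to 333. For eosinophils and basophils the sums were 896 to 1496 FPKM in old and 1227 to 1376 in young libraries, Prg2 alone being at least 861 in each library. T and NK cell markers summed to 41.7 to 61.6 FPKM in old and 27.7 to 36.3 in young libraries, without overlap. Cd2 made up 32.3 and 29.3 FPKM of these sums in old replicates 1 and 2, and Cd4 was highest in young replicate 1, at 23.4. In bulk RNA, fewer cells of a type and less RNA per cell cannot be told apart.

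Promoter stretches of 4 genes are shown because the genes behaved differently: Cxcr4 and Cd44 were abundant in every library, Ccr9 was lower in each old than in each young library, and S1pr4 was uneven. Each is the 250 bases before the RefSeq start on GRCm38.p6, 5′ to 3′ on the strand of the gene, and capitals mark matches to the GC box GGGCGG, the E-box CAGGTG or the KLF box CCACCC on either strand. Their positions are chr1:128592300-128592549 (minus strand) for Cxcr4, chr2:102901666-102901915 (minus strand) for Cd44, chr9:123766961-123767210 (plus strand) for Ccr9 and chr10:81500138-81500387 (minus strand) for S1pr4.
Cxcr4: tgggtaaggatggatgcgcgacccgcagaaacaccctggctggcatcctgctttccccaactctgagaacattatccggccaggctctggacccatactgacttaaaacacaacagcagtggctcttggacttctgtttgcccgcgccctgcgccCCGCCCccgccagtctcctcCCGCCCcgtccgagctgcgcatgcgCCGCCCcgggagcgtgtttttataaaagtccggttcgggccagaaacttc
Cd44: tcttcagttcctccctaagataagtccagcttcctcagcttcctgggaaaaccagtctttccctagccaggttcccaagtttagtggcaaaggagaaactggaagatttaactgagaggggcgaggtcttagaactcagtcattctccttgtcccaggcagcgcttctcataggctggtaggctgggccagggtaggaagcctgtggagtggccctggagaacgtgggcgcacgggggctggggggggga
Ccr9: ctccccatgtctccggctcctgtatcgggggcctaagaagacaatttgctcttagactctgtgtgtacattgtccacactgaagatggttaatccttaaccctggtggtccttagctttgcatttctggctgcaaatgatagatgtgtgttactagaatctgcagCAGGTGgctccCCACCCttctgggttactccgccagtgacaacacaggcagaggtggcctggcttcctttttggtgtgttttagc
S1pr4: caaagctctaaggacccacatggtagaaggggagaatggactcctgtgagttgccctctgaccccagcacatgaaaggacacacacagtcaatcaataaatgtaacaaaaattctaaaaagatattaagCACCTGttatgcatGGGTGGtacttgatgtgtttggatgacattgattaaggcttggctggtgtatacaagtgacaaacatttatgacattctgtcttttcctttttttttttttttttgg

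The RefSeq table matched 6 members, these 4 with Cxcr3 and Ccr2. In the annotation used for exon lengths, Ccr9 spans 123678439 to 123784330. That span starts upstream of the printed Ccr9 stretch, which lies inside it. The Cxcr4 stretch held 19 CpG dinucleotides and was 61.2% G or C, while that of S1pr4 held 0 and was 38.8%. Over all 32851 promoters of the table the median was 6 CpG and 52.4%. Cd44 held 5 CpG, Ccr9 and Cxcr3 held 3 each, and Ccr2 held 1. The GC box occurred in 1 of the 6 member promoters, that of Cxcr4, where it stood 3 times, and in 32.7% of all promoters. The E-box occurred in 3 of the 6 and in 17.2% of all, and the KLF box in 2 of the 6, those of Ccr9 and S1pr4, and in 28.1% of all. The ETS core CCGGAAG and the PRDM1 element AAGTGAAA, for which 6.91% and 1.36% of all promoters had a match, had none in these stretches. A match is a run of letters and not a shown binding site.

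The members fell into a steady, abundant set and an uneven, low one. Cd44, Selplg and Cxcr4 were above 25 FPKM in each of the 6 libraries, and Ccr9 was above 4. Ccr10, S1pr4, Ccr2 and S1pr1 were each at 5 FPKM or more in some libraries and below 0.1 in others. Of the 7852 genes with a mean between 1 and 20 FPKM, 40.6% behaved in this way, as did 4 of the 5 members in that range, while Ccr9 did not. At a mean of at least 20 FPKM, 4.69% of 2835 genes did and 0 of the 3 members. Members below 0.1 FPKM numbered 2, 1 and 1 in old replicates 1 to 3 and 0, 3 and 3 in young replicates 1 to 3. Among all tested genes the share below 0.1 FPKM was 8.86%, 5.39% and 4.42% in the old libraries and 11.004%, 17.4% and 25.2% in the young ones, so the young libraries held more near-empty genes in general.

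**Figure D1:**
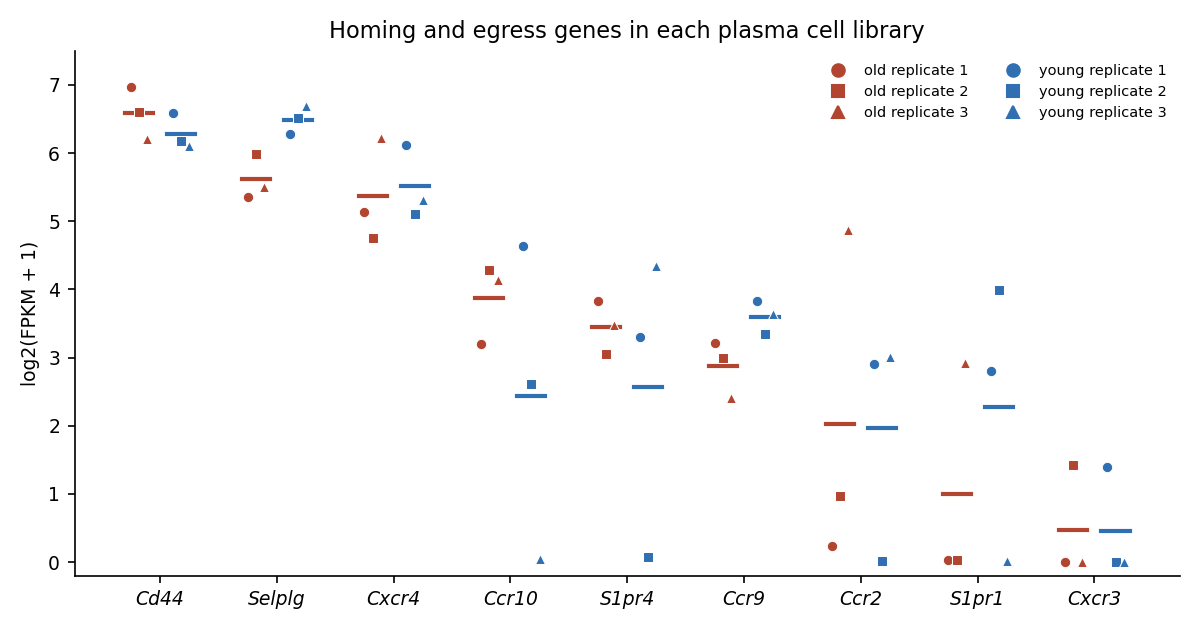
Log2(FPKM + 1) of the 9 genes in each library, ordered by mean over the 6 libraries, with old libraries left of young ones and a bar at each group mean. Cd44, Selplg and Cxcr4 lie above 25 FPKM in every library, and Ccr10, S1pr4, Ccr2 and S1pr1 each drop below 0.1 FPKM in at least 1 library.

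Limma called 0 of the 8 members tested, and 0% of all tested genes were called. At an unadjusted p under 0.05 there was 1 member, Selplg, against 5.91% of all tested genes. There were 0 members under array weights, without old replicate 1 and without young replicate 2. Without young replicate 1 there were 2, and 983 of all 10687 tested genes. The old libraries lay entirely below the young ones for 2 members, Selplg and Ccr9, against 3.42% of all tested genes, and entirely above for 0, against 8.78%. Under median-ratio scaling, where 4.29% of all tested genes lay below, and under quantile normalization, where 6.11% did, both kept this separation. The log2 change was positive for 4 members and negative for 4, with a median of -0.047 beside 0.23 for all tested genes. Quantile normalization moved the median of all genes to -0.010, and genes with a mean of at least 20 FPKM, the range of Cd44, Selplg and Cxcr4, had a median of 0.018 without it.

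**Figure D2:**
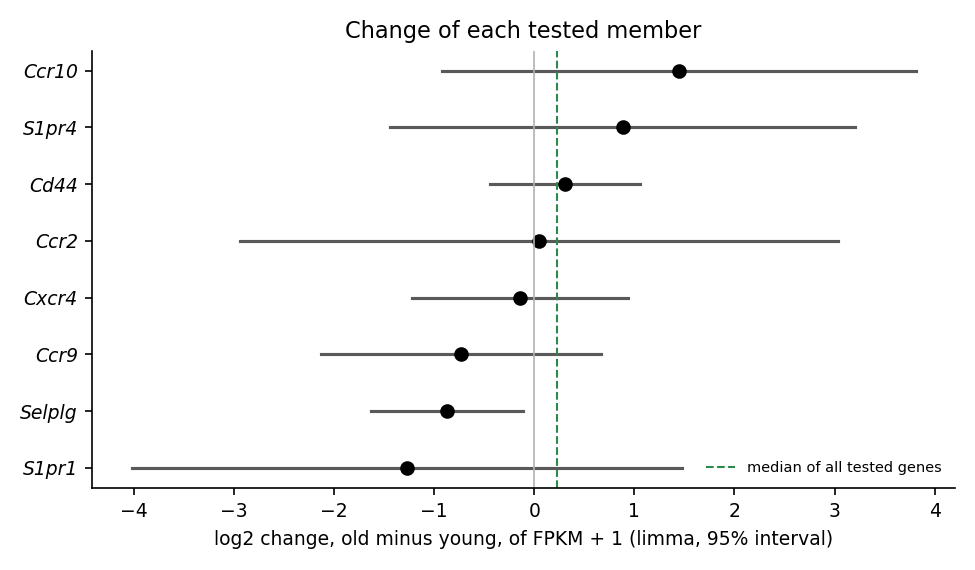
Log2 change of FPKM + 1, old minus young, for the 8 tested members, as points with 95% limma intervals, and the median of all 10687 tested genes as a dashed line at 0.23. The interval of Selplg lies below 0, from -1.63 to -0.12 without adjustment for the number of genes, and the other 7 intervals cover 0.

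Selplg, on chromosome 5 (113818536 to 113832644, minus strand, GRCm38), had the smallest p among the members. It measured 40.1, 62.7 and 44.1 FPKM in old libraries, against 76.8, 90.0 and 101.8 FPKM in young libraries. Every old value was below every young one. The means were 49.0 ± 12.03 FPKM in old and 89.5 ± 12.5 in young libraries (SD, n = 3 each). The log2 change came to -0.87 ± 0.34 (SE) and the limma adjusted p to 0.829, while 3.32% of tested genes had a smaller p. These values rest on roughly 4626 to 9798 fragments a library, so counting error is small beside the spread. Selplg outranked 90.7% to 94.5% of all genes in old and 95.8% to 96.7% in young libraries. Leukocytes of many kinds carry PSGL-1, and the summed monocyte and neutrophil markers, which overlapped between the groups, had their highest values in old libraries. The neutrophil sum was also lowest in one, 263 FPKM in old replicate 1, the library with the lowest Selplg. Their part in the Selplg values was not tested.

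Cd44, on chromosome 2 (102811141 to 102901665, minus strand), was the most abundant member by mean in old libraries, although in old replicate 3 Cxcr4, at 73.8 FPKM, was slightly above it. It stood at 124, 96.2 and 72.5 FPKM in old libraries, against 94.8, 71.0 and 67.5 in young libraries. The groups overlapped, with old replicate 3 below young replicate 1. Its log2 change was 0.31 ± 0.34 (SE; 95% interval -0.45 to 1.06), with a limma adjusted p = 0.876, and it was 0.40 under quantile normalization. The annotation gives Cd44 9 transcripts and 32 distinct exons, and a single value for the gene cannot tell its splice variants apart.

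By mean, Selplg was below Cd44 in old libraries and above it in young ones. The Selplg level was 0.323, 0.651 and 0.609 times that of Cd44 in old replicates 1 to 3, against 0.811, 1.27 and 1.51 times in young replicates 1 to 3. This ratio, chosen after its values were seen, does not depend on scaling between libraries, and the groups did not overlap. Ccr9 stood at 0.0666, 0.0724 and 0.0592 times the Cd44 level in old libraries, against 0.139, 0.128 and 0.169 times in young ones, also chosen after its values were seen. A ratio shows unequal change and not which of both genes moved.

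**Figure D3:**
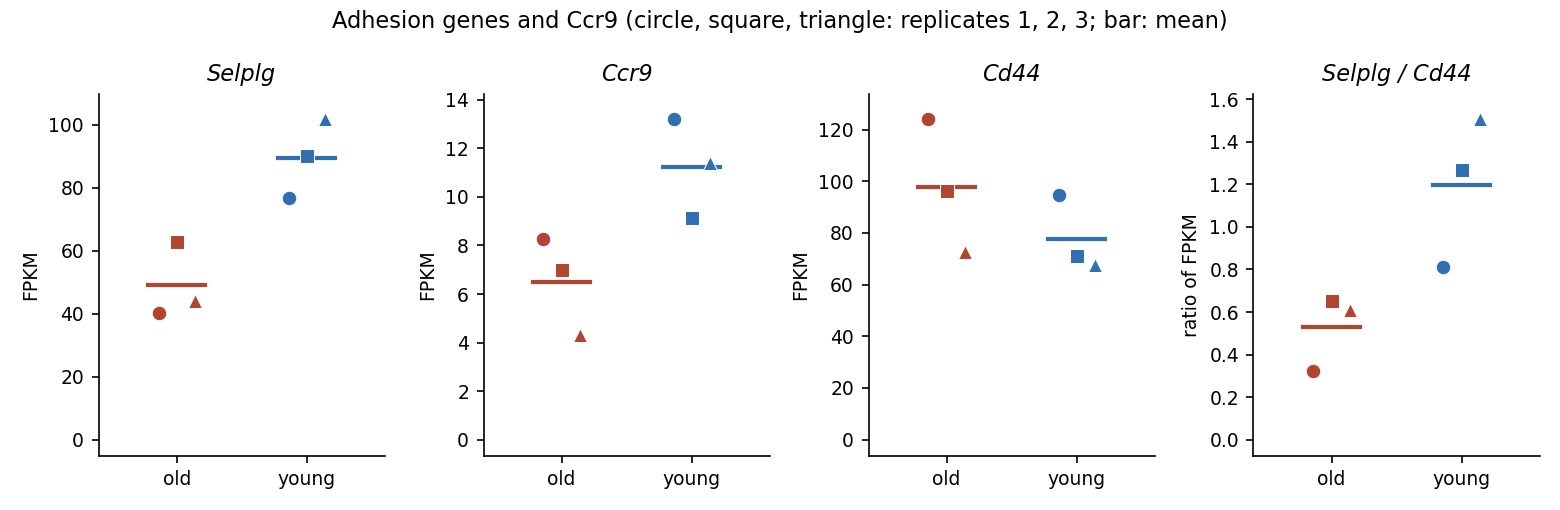
FPKM of Selplg, Ccr9 and Cd44 and the ratio of Selplg to Cd44 in each library, old left of young, with a bar at each mean and axes that include 0. Old and young libraries do not overlap for Selplg, Ccr9 and the ratio, and overlap for Cd44, whose old values reach 124 FPKM.

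Enzymes that equip PSGL-1 for selectin binding, and other selectin ligands, went both ways. Of 22 listed genes 19 were tested, 10 with a positive and 9 with a negative log2 change, a median of 0.017 beside 0.23 for all tested genes. Limma called 0, and 0 had an unadjusted p under 0.05, beside 5.91% of all tested genes. Tpst1, a tyrosine sulfotransferase, was at 23.4, 27.0 and 21.4 FPKM in old libraries, against 62.7, 35.9 and 38.4 in young libraries. Every old value lay below every young one, as for Selplg (log2 change -0.87 ± 0.41 (SE), limma adjusted p = 0.839). Tpst2, the other sulfotransferase, overlapped, at 32.5, 30.1 and 19.4 FPKM in old and 10.6, 37.8 and 72.2 in young libraries. Glg1, which encodes the E-selectin ligand ESL-1, lay the other way, at 34.1, 27.6 and 37.7 FPKM in old libraries, against 23.4, 21.3 and 21.6 in young ones, without overlap (limma adjusted p = 0.854). St3gal6, a sialyltransferase, was at 9.82, 6.96 and 9.92 FPKM in old and 0.0164, 8.20 and 0 in young libraries. Fut7, the fucosyltransferase of selectin ligands, was at 0, 3.55 and 6.96 FPKM in old and 1.06, 1.88 and 7.11 in young libraries. Gcnt1, which starts the branched sugar on PSGL-1, passed 0.1 FPKM in old replicate 3 alone, at 4.36.

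Among 27 partners of CD44 and genes of hyaluronan handling, 17 were tested, 13 with a positive and 4 with a negative log2 change. Limma called 0, and 0 had an unadjusted p under 0.05, beside 5.91% of all tested genes. The median was 0.46 beside 0.23 for all tested genes. Over the alternatives that median ranged from 0.028, without old replicate 3, to 0.51, and it was 0.19 without young replicate 3. Ezr, the membrane linker ezrin, was at 141, 123 and 105 FPKM in old and 124, 199 and 209 in young libraries, which overlapped. Adam10, a protease that sheds CD44, was at 24.1, 31.2 and 46.9 FPKM in old and 30.3, 7.14 and 19.95 in young libraries (limma adjusted p = 0.844). Among the 17 tested genes, 0 separated the groups in either direction. Of all tested genes, 3.42% lay entirely below in old libraries and 8.78% entirely above.

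Cxcr4, the receptor for the marrow chemokine Cxcl12, on chromosome 1 (128588199 to 128592293, minus strand), was abundant and similar in mean between the groups. It was at 34.1, 25.9 and 73.8 FPKM in old libraries, against 68.2, 33.6 and 38.7 in young libraries. Within each group 1 library stood about as high, old replicate 3 and young replicate 1, and the ranges overlapped nearly throughout. Cxcr4 had a log2 change of -0.14 ± 0.48 (SE), with a 95% interval of -1.22 to 0.93 that leaves room for a difference in either direction, and a limma adjusted p = 0.977. Its sign turned without old replicate 2, at 0.17, and without young replicate 1, at 0.16. Cxcl12 itself was at 1.67, 1.12 and 0.246 FPKM in old and 1.61, 0.109 and 0 in young libraries, under the filter. Mif, a cytokine that also binds Cxcr4, was at 22.1, 47.7 and 129 FPKM in old and 31.1, 88.6 and 1.63 in young libraries. Of 12 listed ligands of the member receptors 4 had values and 2 were tested, with 0 called by limma. At an unadjusted p under 0.05 there were 0, beside 5.91% of all tested genes.

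Transcripts of genes that signal downstream of such receptors were measured in both groups. Gnai2, the main inhibitory G protein subunit of leukocyte chemokine receptors, was at 105, 97.5 and 169 FPKM in old and 118, 152 and 115 in young libraries, which overlapped. Of 39 listed signalling and desensitization genes 35 were tested, 21 with a positive and 14 with a negative log2 change, and a median of 0.14 beside 0.23 for all tested genes. Limma called 0, with 1 gene at an unadjusted p under 0.05, beside 5.91% of all tested genes. That gene was Rgs18, a regulator of G protein signalling, at 5.04, 1.90 and 14.5 FPKM in old libraries and listed at 0 in each young one. Grk3, a receptor kinase, was at 2.33, 0.338 and 9.70 FPKM in old and 0.102, 0.0179 and 0 in young libraries. Rgs1, known to dampen Cxcr4 signalling, was at 1.62, 0.0280 and 1.01 FPKM in old and 0.183, 0 and 0 in young libraries. A gene at 0 in young libraries passed the filter through its old values alone.

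Ccr9, the receptor for the thymic and gut chemokine Ccl25, on chromosome 9 (123678439 to 123784330, plus strand), was lower in each old than in each young library. It was at 8.27, 6.97 and 4.30 FPKM in old libraries, against 13.2, 9.11 and 11.4 in young libraries. The gap between the groups, 8.27 against 9.11 FPKM, was small beside the spread within them. The means were 6.51 ± 2.03 FPKM in old and 11.2 ± 2.05 in young libraries (SD, n = 3 each), a log2 change of -0.73 ± 0.63 (SE), or -0.96 relative to all tested genes, with a limma adjusted p = 0.854. The 95% interval, -2.13 to 0.67, covers 0. Plasmacytoid dendritic cells also carry Ccr9, and 8 other markers of theirs summed to 339, 292 and 288 FPKM in old and 379, 329 and 600 in young libraries. Of these, Siglech was at 0.00955, 0.320 and 6.21 FPKM in old and 14.9, 0.406 and 16.0 in young libraries. Bst2 was at 27.8, 40.6 and 47.5 FPKM in old and 2.68, 3.74 and 200 in young libraries, so the high sum of young replicate 3 was not shared by the whole list. Ly6d, another of them, was at 152, 193 and 149 FPKM in old and 315, 263 and 327 in young libraries, without overlap and in the same direction as Ccr9. Cox6a2 and Pacsin1, also among them, separated the groups the other way. Cox6a2 was at 119, 24.2 and 48.4 FPKM in old and 0, 12.1 and 0 in young libraries. Pacsin1 was at 4.43, 4.82 and 8.06 FPKM in old and 0.441, 2.03 and 0 in young libraries. The part of such cells in the difference was not tested. In the annotation 18.8% of the exon bases of Ccr9 overlap AC165425.1, an opposite-strand transcript, and the strand setting of the counting is not known, so reads of both may be merged. Its gene model of 10260 exon bases also makes the level of Ccr9 beside other genes uncertain.

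Ccr10, the receptor for the chemokines Ccl27 and Ccl28, lies on chromosome 11 (101172997 to 101175443, minus strand). It had the largest positive log2 change among the members, and this change rested on 1 near-empty library. It was at 8.20, 18.4 and 16.6 FPKM in old libraries, against 23.9, 5.13 and 0.0270 in young libraries. The old values lay within the young range, and the lowest young value corresponds to about 1 fragment. Limma gave a log2 change of 1.44 ± 1.06 (SE; 95% interval -0.93 to 3.81; limma adjusted p = 0.854), against 0.25 without young replicate 3. Young replicate 3 was also the library with the largest share of near-empty genes.

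Ccr2, the receptor for the inflammatory chemokine Ccl2 and a gene of circulating monocytes, on chromosome 9 (124101950 to 124113557, plus strand), was high in a single library. It was at 0.177, 0.9505 and 28.1 FPKM in old libraries, against 6.48, 0.00587 and 7.02 in young libraries. Old replicate 3 stood far above the next library, at 7.02 FPKM, and young replicate 2 held about 1 fragment. The log2 change was 0.049 ± 1.34 (SE; limma adjusted p = 0.998), with a 95% interval of -2.94 to 3.04, and -1.37 without old replicate 3. Summed over 11 genes, monocyte and macrophage markers were at 216, 357 and 788 FPKM in old and 80.8, 203 and 357 in young libraries. Old replicate 3 was the highest in both measures, while young replicate 1 had the lowest marker sum and 6.48 FPKM of Ccr2. The match was not particular to monocyte markers. Old replicate 3 also had the highest sums of erythroid markers (914 FPKM), eosinophil and basophil markers (1496) and T and NK cell markers (61.6). Its plasma cell sum was the lowest, at 9317 FPKM. Its neutrophil sum, 679, was not the highest, and its B cell sum, 264, was the lowest. Of the markers, Lyz2 was at 516 FPKM, Ccl9 at 83.4, Ms4a6c at 59.98 and Csf1r at 8.97 in old replicate 3. Ms4a6c was also at 55.1 FPKM in young replicate 2, where Ccr2 was near 0. Ly6c2 and Cd68 were highest in young replicate 3, at 114 and 129 FPKM, against 79.6 and 33.9 in old replicate 3. Fcgr1 and C1qb were below 1 FPKM in every library. The part of monocytes in Ccr2 was not tested.

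**Figure D4:**
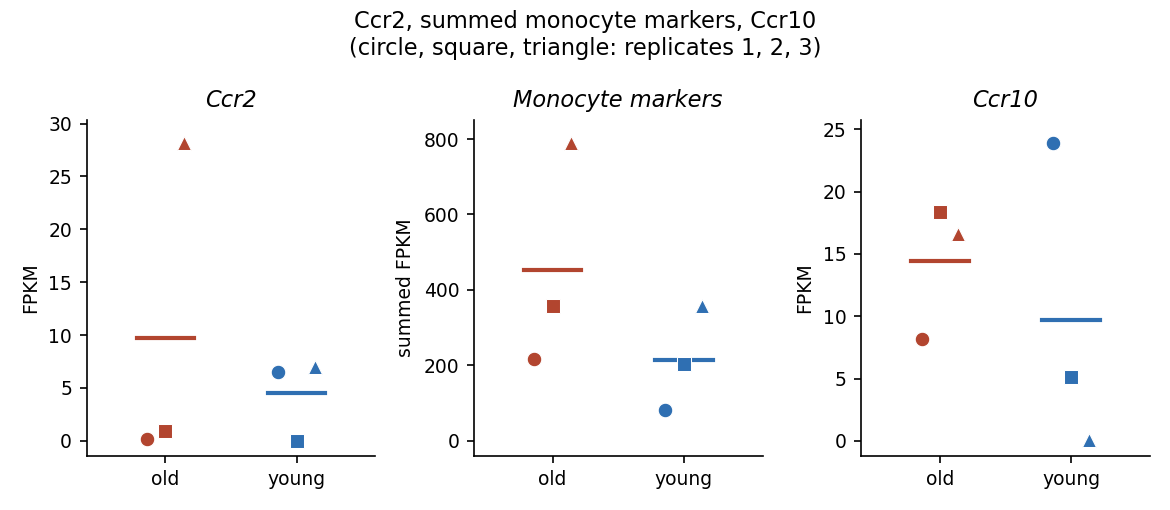
FPKM of Ccr2, summed FPKM of 11 monocyte and macrophage markers, and FPKM of Ccr10 in each library, old left of young, with a bar at each mean. Old replicate 3 is highest for Ccr2, at 28.1 FPKM, and for the markers, at 788, and young replicate 3 is near 0 for Ccr10.

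Cxcr3, the receptor for the interferon-induced chemokines, on chromosome X (101731535 to 101734269, minus strand), was under the filter and was not tested. It was at 0, 1.68 and 0 FPKM in old libraries, against 1.62, 0 and 0 in young libraries. Old replicate 2 and young replicate 1 held about 82 and 68 fragments, and the other 4 libraries held 0. T cells and NK cells can carry Cxcr3, and their summed markers stood at 45.5, 41.7 and 61.6 FPKM in old and 36.1, 36.3 and 27.7 in young libraries. The sum in old replicate 2 was thus the lowest of the old libraries. Single markers differed from the sum: Cd3e, at 2.73 FPKM, and Cd8a, at 1.16, were highest in old replicate 2. Nkg7 was at 0 there, and Cd3g was at 2.52, against 5.05 in young replicate 3, where Cxcr3 was at 0. In young replicate 1 Cd4 was at 23.4 and Nkg7 at 5.38, while Cd3d, Cd3e, Lck and Ncr1 were at 0. The part of such cells in Cxcr3 was not tested. Among its ligands Cxcl10 was at 9.05, 2.30 and 0 FPKM in old and 0, 0.0338 and 0 in young libraries.

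Of 25 other chemokine and chemoattractant receptors 22 had values and 9 passed the filter, 7 with a positive and 2 with a negative log2 change, a median of 0.99 beside 0.23 for all tested genes. The median was 0.44 over all 22 with no filter, 0.36 with a pseudocount of 5, 0.33 under quantile normalization, 0.61 without old replicate 1 and 0.62 without young replicate 1. Limma called 0. Beside 5.91% of all tested genes, 1 had an unadjusted p under 0.05, Fpr2. This formyl peptide receptor gene was at 13.5, 6.98 and 1.40 FPKM in old libraries and listed at 0 in each young one. Xcr1, a receptor gene of dendritic cells, was at 5.55, 1.20 and 0.0583 FPKM in old libraries and likewise listed at 0 in the young ones. Both passed the filter through old libraries alone. None of the 9 tested was above 25 FPKM in any library, whereas Cxcr4 was above it in each.

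S1pr1, the receptor that draws lymphocytes toward S1P in blood and lymph, on chromosome 3 (115710433 to 115715072, minus strand), was either at several FPKM or nearly absent. It was at 0.0250, 0.0239 and 6.57 FPKM in old libraries, against 5.98, 14.9 and 0.0149 in young libraries. The 3 low values correspond to about 2, 2 and 1 fragments, and both groups held low and high libraries. The log2 change was -1.27 ± 1.24 (SE; 95% interval -4.03 to 1.48; limma adjusted p = 0.854). Leaving out young replicate 3 gave -2.40, and leaving out young replicate 2 gave -0.42.

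S1pr4, an S1P receptor gene of blood cells, on chromosome 10 (81497747 to 81500132, minus strand), was not low in the same libraries. It was at 13.2, 7.26 and 10.2 FPKM in old libraries, against 8.86, 0.0511 and 19.3 in young libraries. Young replicate 2, which had the highest S1pr1, held about 3 fragments of S1pr4, and young replicate 3, nearly without S1pr1, had the highest S1pr4. The log2 change was 0.88 ± 1.04 (SE; 95% interval -1.44 to 3.21; limma adjusted p = 0.886) and turned to -0.37 without young replicate 2.

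Klf2, a transcription factor known to activate S1pr1, and Cd69, whose product pulls S1PR1 from the cell surface, were uneven as well. Klf2 was at 328, 103 and 25.3 FPKM in old libraries, against 2.85, 35.1 and 139 in young libraries. Cd69 was at 33.3, 13.1 and 10.8 FPKM in old libraries, against 0.239, 6.00 and 20.5 in young libraries. Old replicates 1 and 2 and young replicate 3 had the 3 highest levels of both genes and the 3 lowest levels of S1pr1, an order noticed after the values were seen and not tested. Neither was called (limma adjusted p = 0.851 for Klf2 and 0.844 for Cd69). Both are also known as genes that respond quickly to stimulation and handling, whose part was not tested.

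**Figure D5:**
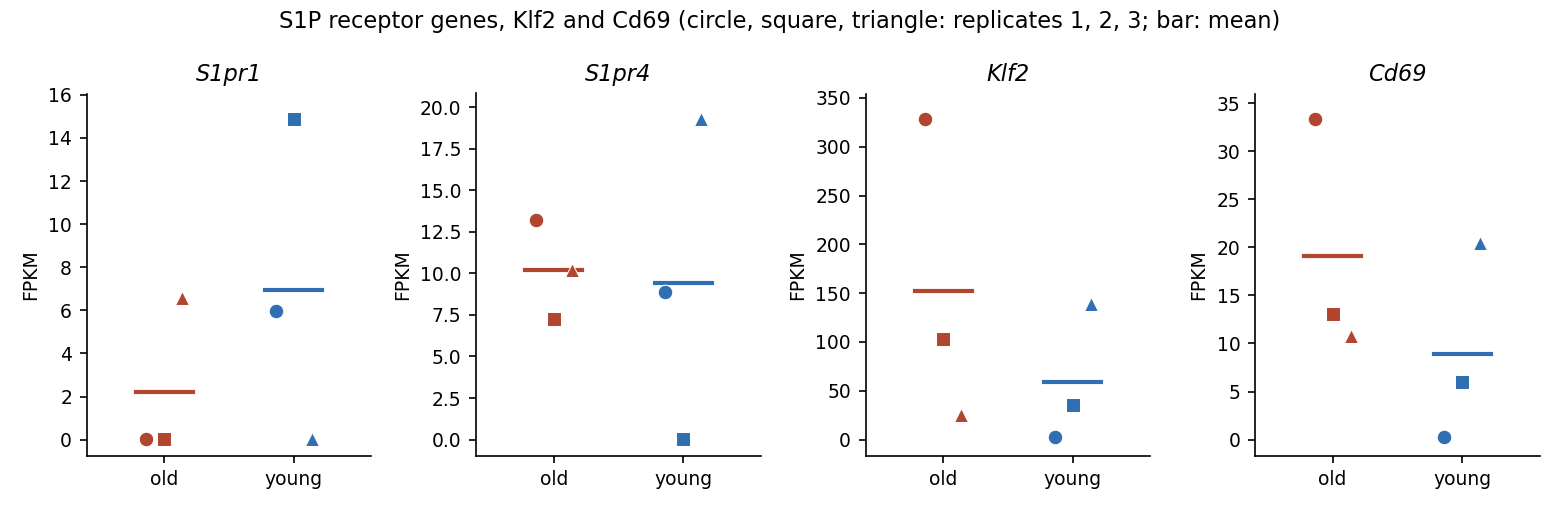
FPKM of S1pr1, S1pr4, Klf2 and Cd69 in each library, old left of young, with a bar at each mean. Old replicates 1 and 2 and young replicate 3 have S1pr1 below 0.1 FPKM and Klf2 above 100 FPKM, while S1pr4 is near 0 in young replicate 2 alone.

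Of 17 other genes of S1P reception, handling and control 13 were tested, 9 with a positive and 4 with a negative log2 change, and a median of 0.88 beside 0.23 for all tested genes. That median ranged from 0.45, without young replicate 1, to 1.65, where a mean of at least 5 FPKM was required. Under quantile normalization it was 0.53, beside -0.010 for all tested genes. Plpp1, at 0.363, 2.36 and 25.2 FPKM in old libraries and 0 in each young one, passed the filter through old values alone. In this list limma called 0. At an unadjusted p under 0.05 there was 1, Foxo1, beside 5.91% of all tested genes. Foxo1, a transcription factor upstream of Klf2 in lymphocytes, was at 20.6, 14.4 and 9.44 FPKM in old libraries, against 3.08, 4.36 and 2.74 in young libraries. Every old value was above every young one, and the log2 change was 1.80 ± 0.68 (SE; limma adjusted p = 0.793). Sgpp1, a phosphatase that degrades S1P, was at 17.0, 17.99 and 12.95 FPKM in old libraries, against 19.2, 0.969 and 0.0956 in young ones, which overlapped through young replicate 1 (limma adjusted p = 0.839).

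By level per gene length, Cd44 came first in old libraries at 97.6 ± 25.8 FPKM (SD, n = 3), above Selplg at 49.0 ± 12.03 without overlap, and Cxcr4 followed at 44.6 ± 25.6, overlapping with Selplg and, through old replicate 3, with Cd44. A gap without overlap separated Cxcr4 from Ccr10, at 14.4 ± 5.45 FPKM, in old libraries. Below it S1pr4, Ccr2, Ccr9, S1pr1 and Cxcr3 each overlapped with the next. In young libraries Selplg, at 89.5 ± 12.5 FPKM, overlapped with Cd44, at 77.8 ± 14.8, and Cd44 with Cxcr4, at 46.8 ± 18.7, although Cd44 was above Cxcr4 in 3 of 3 libraries. Cxcr4 was again separate from the next gene, there Ccr9 at 11.2 ± 2.05 FPKM, and the order below it was Ccr10, S1pr4, S1pr1, Ccr2 and Cxcr3, each overlapping with the next. Both groups thus shared the same first 3 genes, with Selplg and Cd44 in the other order.

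Genes with the most similar pattern over the 6 libraries were sought for Cxcr4, Selplg and Cd44 among 2712 other genes with a mean of at least 20 FPKM. By Pearson's r of log2(FPKM + 1), the nearest to Cxcr4 were Hsp90ab1, Luc7l3 and Baz1a, with r of 0.991, 0.986 and 0.982. Hsp90ab1, a cytosolic chaperone gene, was at 507, 478 and 784 FPKM in old and 730, 534 and 573 in young libraries. The nearest to Selplg were Cuta, Rpl19 and Borcs8, with r of 0.980, 0.976 and 0.975, and those to Cd44 were Slc44a1, Alcam and Tada2b, with r of 0.994, 0.971 and 0.958. Alcam, an adhesion molecule gene, was at 29.8, 23.1 and 18.01 FPKM in old and 20.5, 15.0 and 14.4 in young libraries. With 6 libraries that share depth and preparation, and 2712 genes searched, such values describe these libraries, and 7, 6 and 3 genes exceeded an r of 0.95 for Cxcr4, Selplg and Cd44.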

How the data were processed

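The deposited table gives 1 column of FPKM values for each of 6 libraries, made by the authors. Per the labels' protocols, libraries were made from 5 ng of total RNA with a stranded template-switching kit and read as paired ends. Per the submitters' processing notes, bcl2fastq 2.17, STAR and DESeq2 were used on GRCm38 and mm10, with no roles stated. Counter, annotation release and strand setting are not given in the sources used here. Positions and exon lengths come from GENCODE M21 (GRCm38), which matched 99.9% of identifiers.

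FPKM are not counts, so limma 3.58.1 (R 4.3.3) with a mean-variance trend was run on log2(FPKM + 1), two-sided, over genes with a mean of at least 1 FPKM. The log2 change is old minus young and understates the change of low genes. Fragments were approximated from the lowest multiples of value times exon length. Reads amplified from so little RNA are not independent molecules, so these numbers cover counting error only. Library profiles correlated at 0.610 to 0.785, with no pair alike enough to be 1 library. Python 3.11.15 was used for tables, and the limma script was tested on simulated data. The members and lists were chosen with earlier results of these data known. The rule for named genes took all members, the 2 genes of smallest p in each list, a set of partners, and 3 pattern neighbours of each member above 20 FPKM. Other genes are named where a result turned on them. Alternatives covered pseudocount, filter, scaling, variance model, replicate block and leaving out each library.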

Additional observations from a re-analysis of the deposited data

How the results depend on the processing

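Homing members and genes of the pathway lists were called 0 times in each of the 15 alternatives. Over all genes limma called 0 in 12 alternatives and 1, not a member, under quantile normalization, robust moderation and array weights. Selplg, Ccr9, Ccr10, S1pr1 and Cd44 kept their sign throughout. Selplg ranged from -1.06 to -0.72 and Ccr9 from -1.11 to -0.50. Ccr2 turned to -0.014 with median-ratio scaling, -0.32 with quantile normalization and -0.26 with array weights, and the cause was not tested. Without single libraries Ccr2 ranged from -1.37 to 0.94, Cxcr4 from -0.57 to 0.17, S1pr4 from -0.37 to 1.77 and Ccr10 from 0.25 to 2.55. S1pr1 has no value at a mean of at least 5 FPKM, which it does not reach. The median of the selectin list changed sign in 6 alternatives and those of the other 5 lists in 0. Deviations of equally numbered libraries correlated at -0.034, 0.020 and -0.0041. These values show no pairing of the samples by number, but with 3 libraries a group they cannot exclude it. The replicate block called 0 genes. With 3 samples a group, values of a few fragments limit S1pr1, S1pr4, Ccr2 and Ccr10.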
